A study of Mus musculus with 2 samples.

Results

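The microRNAs miR-191, miR-425 and miR-378a were measured in the limb of the mouse embryo at 12.5 days of development. They are 3 of 1973 microRNA gene rows counted in the series. Each was taken by its Ensembl identifier: Mir425 (ENSMUSG00000065579) as counted on its own strand, Gm24083 (ENSMUSG00000092915), which lies over Mir191, and Gm25301 (ENSMUSG00000093026), which lies over Mir378a. For Gm24083 and Gm25301 the counts of the opposite strand were used. The members were chosen by their measured counts in these libraries, which showed where the reads lie, so their levels and strands are a description and carry no test. All 3 rows passed the filter of 10 counts in the sum of the libraries.

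The study has 1 group of 2 libraries and no contrast of conditions. Both were made from limbs of healthy embryos of the strain B6NCrl, male and female together, with RNA shorter than 30 nucleotides taken from total RNA. Replicate 1 pooled 88 embryos and replicate 2 pooled 68, and the labels call them biological replicates. Whole limbs were used, so no cell type is resolved, and fewer cells of a type cannot be told apart from less RNA per cell.

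MicroRNAs are cut from hairpin precursors and guide Argonaute proteins to messenger RNAs, mostly through the seed near their 5′ end. Mir191 and Mir425 are neighbours that are held to be processed from a common primary transcript, and both are found in many tissues. miR-191 is often used as a reference in microRNA measurements. Mir378a lies within Ppargc1b, the gene of the transcriptional coactivator PGC-1β, which promotes mitochondrial gene expression. miR-378a is known for roles in lipid and energy metabolism and in muscle differentiation.

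Mir191 occupied 74 bases of the plus strand of chromosome 9 (mm10, chr9:108568319-108568392), and Mir425 followed on the same strand (chr9:108568777-108568861, 85 bases) after a gap of 384 bases. In GENCODE M21 both lay in the single exon of transcript 4833445I07Rik-201 of a long non-coding RNA gene (chr9:108567533-108569174, plus strand). In the spliced transcript 4833445I07Rik-202 Mir191 lay in intron 1, and that transcript ended 2 bases before Mir425. GENCODE starts Dalrd3, a protein-coding gene, 1024 bases downstream of Mir425, whereas RefSeq extends Dalrd3 from 108567484 to 108572773, over both microRNAs. No other annotated microRNA gene lay within 10 kb of either.

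Mir378a (chr18:61397835-61397900, minus strand, 66 bases) lay in intron 1 of all 3 annotated Ppargc1b transcripts that span it, on their strand. Exon 1 lay 2390 bases upstream, and no other annotated microRNA gene lay within 10 kb. The rows that carry the counts of miR-191 and miR-378a run antisense to the microRNAs and are wider. Gm24083 (chr9:108568295-108568414, minus strand) reached 24 and 22 bases beyond the ends of Mir191. Gm25301 (chr18:61397813-61397925, plus strand) reached 22 and 25 bases beyond Mir378a. Both hairpins were therefore covered whole by the counted rows.

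**Figure D1:**
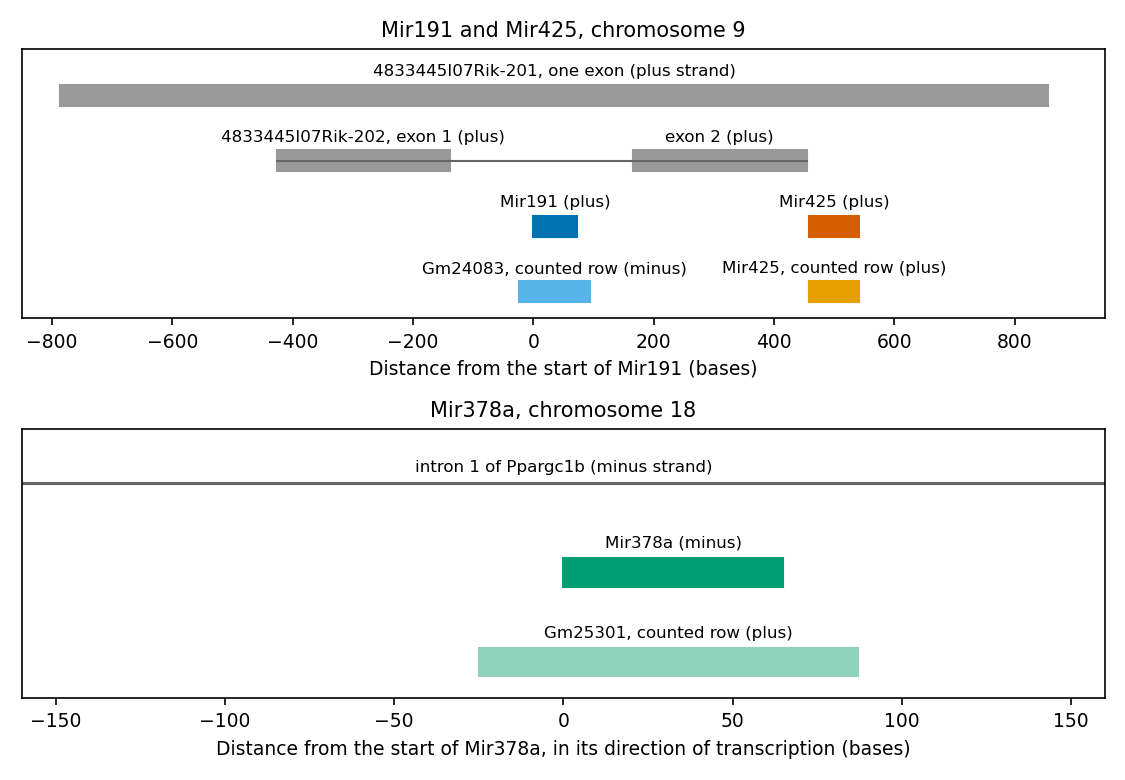
Positions of the counted rows and of the microRNA genes, as distance in bases from the start of Mir191 (upper panel) and of Mir378a (lower panel), with the strand in brackets and the annotated transcripts above. Gm24083 and Gm25301 cover Mir191 and Mir378a on the other strand, while Mir425 is counted in a row of its own.

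Sequences of 2 of the 3 members were matched in the RefSeq table used (GRCm38.p6). The mature forms from both arms of Mir191 and Mir425 are shown 5′ to 3′ because their seeds decide which other microRNAs belong with them. Capitals mark the seed, bases 2 to 8.

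mmu-miR-191-5p: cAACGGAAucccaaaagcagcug
mmu-miR-191-3p: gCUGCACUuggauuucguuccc
mmu-miR-425-5p: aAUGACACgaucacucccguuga
mmu-miR-425-3p: aUCGGGAAugucguguccgcc

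The hairpins are shown because each count covers the whole of one. Capitals mark the mature arms.

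Hairpin of Mir191: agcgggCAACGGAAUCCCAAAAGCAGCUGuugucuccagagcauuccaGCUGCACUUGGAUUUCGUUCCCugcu
Hairpin of Mir425: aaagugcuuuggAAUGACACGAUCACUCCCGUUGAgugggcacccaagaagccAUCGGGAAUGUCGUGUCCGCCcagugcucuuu

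The neighbours differed in all 4 seeds, and the longest stretch common to their hairpins was 5 bases. Against the 1004 other hairpins of the RefSeq table, the longest shared stretch was 10 bases for Mir191 and 12 for Mir425. Neither shared 20 bases with another hairpin, so reads of these genes had no near-identical copy in that table. No other mature mouse microRNA in the table carried the seed of miR-191-5p, miR-191-3p or miR-425-3p. The seed of miR-425-5p was also that of miR-489-3p. Its gene Mir489 had 1 count in replicate 1 and 0 in replicate 2. Each row counts a whole hairpin, so no value can be given for a single arm or seed. A count of 0 allows up to 3 counts, or 0.832 CPM in replicate 2 (CPM are counts per 1000000 own-strand counts on gene rows).

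The libraries held 3604284 to 4525636 such counts, which were 37.0% to 42.5% of all reads in the tables. Reads that mapped to several places made up 23.7% to 27.2%. A row was called detected where both libraries reached 10 CPM. All 6 markers of limb tissues were detected, from Mir206 of skeletal muscle at 2347 ± 213 CPM to Mir196b of the HoxA cluster at 86831 ± 9376 CPM (SD, n = 2). Of the 6 markers of liver, neurons and blood, 3 were detected. Mir223, of white blood cells, was highest at 275 ± 52 CPM. Mir451a, of red blood cells, stood at 174 ± 54 CPM and Mir122, of liver, at 15.0 ± 2.8 CPM. The 3 Mir124a genes of neurons were at 0 in both libraries. They are near-identical copies whose common reads could not be assigned, so the 0 does not show that they are absent.

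miR-378a was the most abundant of the 3 microRNAs, miR-191 came next and miR-425 was lowest, in both libraries. miR-378a had 23865 counts in replicate 1 and 19425 in replicate 2, which were 5273 CPM (exact 95% Clopper-Pearson limits of 5207 and 5340) and 5389 CPM (5314 and 5466). These limits cover counting error only, since PCR copies of 1 molecule count as separate reads. Replicate 2 was thus the higher by a small margin, and the intervals of the libraries overlapped.

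miR-191 had 9530 counts in replicate 1 and 9185 in replicate 2, or 2106 CPM (2064 to 2148) and 2548 CPM (2497 to 2601). Replicate 2 was the higher, and the counting intervals were apart. miR-425 had 8177 and 5365 counts, or 1807 CPM (1768 to 1846) in replicate 1 and 1489 CPM (1449 to 1529) in replicate 2. Here replicate 1 was the higher, again with intervals apart. The strands not used, which are the own strand of Gm24083 and Gm25301 and the opposite strand of Mir425, held 0 counts in both libraries.

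In the mean, miR-378a stood at 5331 ± 82 CPM, miR-191 at 2327 ± 313 CPM and miR-425 at 1648 ± 225 CPM (SD, n = 2). The gap of miR-378a to miR-191 was far wider than the spread between the libraries. The lowest value of miR-191 lay above the highest of miR-425, but by less than the SD of miR-191, so the size of that gap is poorly known from 2 libraries. How well each microRNA was captured in the library was not measured, and these levels compare read counts and not molecules.

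**Figure D2:**
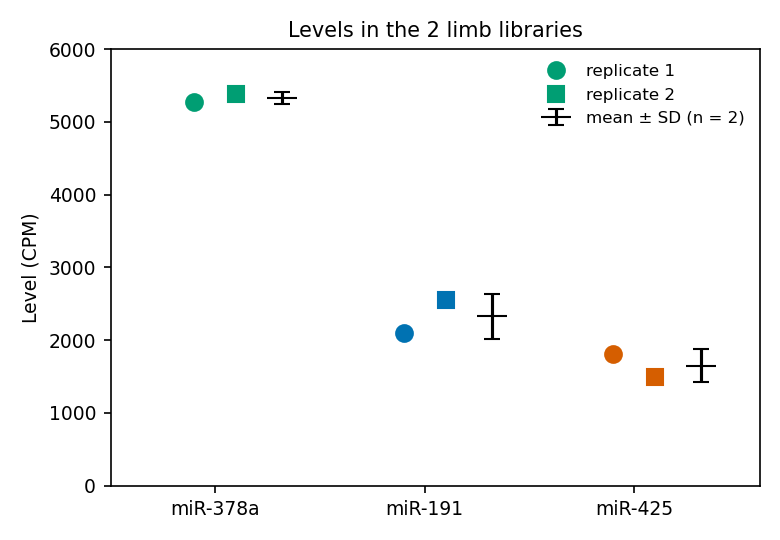
Level in CPM of each microRNA in replicate 1 (circles) and replicate 2 (squares), with the mean and SD of the 2 libraries in black. miR-378a lies at 5273 and 5389 CPM, well above the others, while miR-191 is higher and miR-425 lower in replicate 2.

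Among all 1973 rows, miR-378a ranked 43rd by mean level, miR-191 70th and miR-425 82nd. These ranks set the members against own-strand counts of the other rows. With the sum of both strands in every row, the ranks of miR-378a, miR-191 and miR-425 were 45, 72 and 84. By library miR-378a ranked 41st in replicate 1 and 42nd in replicate 2, miR-191 72nd and 65th, and miR-425 79th and 85th. Of the 288 detected rows, 245 lay below miR-378a, 218 below miR-191 and 206 below miR-425. All 3 therefore belonged to the upper part of the microRNAs seen in this tissue, yet each held a small share of the counts. miR-378a equalled 0.527% and 0.539% of the gene counts in replicates 1 and 2, miR-191 0.211% and 0.255%, and miR-425 0.181% and 0.149%.

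In the counts on the opposite strand, the rows of miR-378a and miR-191 had a large part. Together they held 33395 of 110653 such counts in replicate 1 (30.2%) and 28610 of 96810 in replicate 2 (29.6%). Gm25301 alone made up 21.6% and 20.1%, and Gm24083 8.61% and 9.49%. Such counts were not particular to these rows: 24 rows in replicate 1 and 21 in replicate 2 held more than 3 of them. By these counts Gm25301 stood 2nd in replicate 1 and 3rd in replicate 2, and Gm24083 4th in both. A tally of own-strand counts alone would list miR-191 and miR-378a at 0 in this tissue.

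The rows nearest in level, by distance between log2 CPM values over the 2 libraries, were named for each member. For miR-378a they were Mir431 at 5391 ± 103 CPM (distance 0.02), Mir143 at 5260 ± 26 CPM (0.03) and Mir127 at 5023 ± 200 CPM (0.15). Mir431 and Mir127 belong to the imprinted Dlk1-Dio3 region, and Mir143 is known from smooth muscle. For miR-191 they were the muscle microRNA Mir206 at 2347 ± 213 CPM (0.07), Mir183 of sensory cells at 2472 ± 484 CPM (0.14) and Mir181a-1 at 2132 ± 14 CPM (0.26). For miR-425 they were Mir484 at 1728 ± 335 CPM (0.12), Mir107 at 1568 ± 123 CPM (0.13) and Mir188 at 1574 ± 314 CPM (0.14). Except for Mir127, these rows differed from their member by less than the larger SD of the pair, so their order is not resolved. With 2 libraries this likeness is one of level alone.

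**Figure D3:**
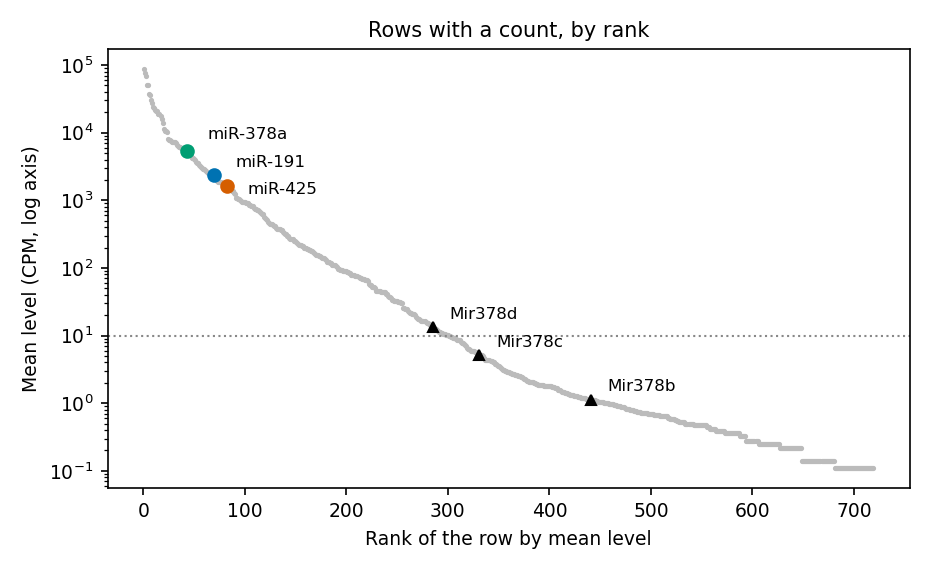
Mean level in CPM (log axis) of every row with a count, by rank, with miR-378a, miR-191 and miR-425 as coloured circles and the other rows named miR-378 as triangles. The dotted line marks 10 CPM; the members lie between ranks 43 and 82, while Mir378c and Mir378b lie below the line.

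The other genes named for the miR-378 family, taken by name alone and with no comparison of their seeds with that of miR-378a, had few counts. Mir378d (chromosome 10) had 58 counts in replicate 1 and 49 in replicate 2, or 12.8 and 13.6 CPM. Mir378c (chromosome 14) had 28 and 15 counts, or 6.19 and 4.16 CPM, and Mir378b (chromosome 11) had 9 and 1, or 1.99 and 0.277 CPM. Only Mir378d reached 10 CPM in both libraries. The level of miR-378a was 411 times that of Mir378d in replicate 1 and 396 times in replicate 2. miR-378a held 99.6% and 99.7% of the counts assigned to these 4 genes. The hairpins of Mir378b and Mir378c share a stretch of 19 bases, and each shares 14 with Mir378d. Mir378a had no hairpin entry, so its stretches shared with these relatives were not looked for. Reads common to several of the 4 genes were set apart as mapping to several places, and how many there were was not tested. The levels of miR-378a and of its relatives, and the ratios and shares between them, are therefore uncertain.

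miR-191 and miR-425 moved in opposite directions between the libraries. The log2 ratio between the libraries (replicate 2 over replicate 1, after adding 0.5 to every count) was 0.28 (counting SE 0.021) for miR-191 and -0.28 (SE 0.025) for miR-425. For miR-378a it was 0.03 (SE 0.014). In linear terms miR-191 was 1.21 times as high in replicate 2, and miR-425 1.21 times as high in replicate 1. An exact binomial test of the counts, which compares these 2 libraries with counting error alone and not conditions, gave Benjamini-Hochberg adjusted p-values of 8.43e-38 for miR-191, 1.11e-27 for miR-425 and 0.0574 for miR-378a. It called 184 of 438 rows tested (42.0%), 20.8% as higher in replicate 2 and 21.2% as higher in replicate 1, so a call is common in this comparison. With edgeR TMM scaling miR-378a was called as well (log2 ratio 0.05, adjusted p = 0.00305). edgeR's negative binomial exact test, with the dispersion estimated from the same 2 libraries, called 0 of 438 rows, with 25 at an unadjusted p under 0.05. Its adjusted p was 1 for all 3 members.

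Set beside the 191 rows at 100 CPM or more, miR-378a differed little between the libraries. Of these rows, 17 had a smaller absolute log2 ratio than miR-378a, against 128 for miR-191 and 129 for miR-425, and the median absolute value was 0.18. The coefficient of variation over the 2 libraries was 1.54% for miR-378a, 13.4% for miR-191 and 13.7% for miR-425, with a median of 8.98% over the 191 rows. With 2 libraries, a small difference in a single row can arise without the row being stable in general.

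**Figure D4:**
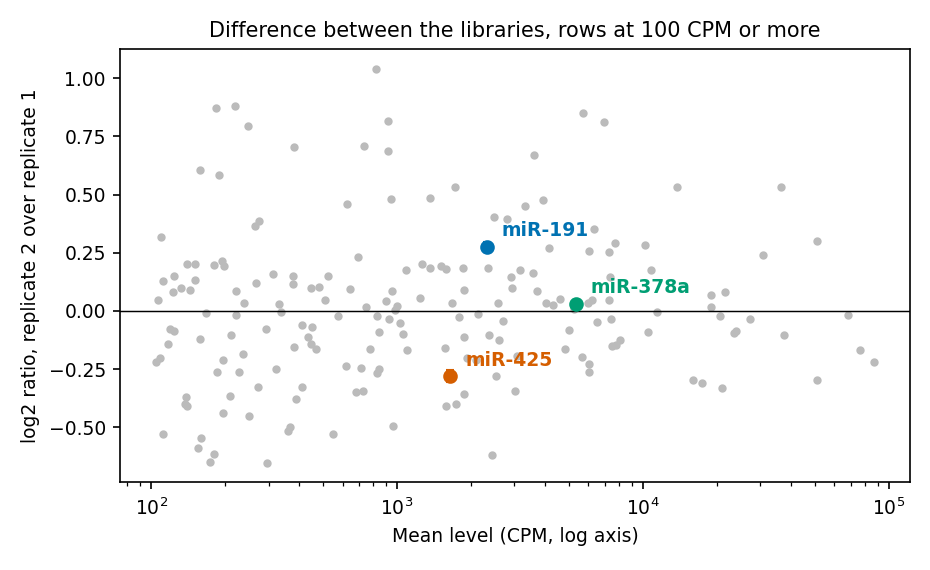
Log2 ratio of replicate 2 over replicate 1 against mean level (CPM, log axis) for the 191 rows at 100 CPM or more, with counting SE as bars on the 3 members, mostly hidden by the points. miR-191 lies at 0.28, miR-425 at -0.28 and miR-378a at 0.03, all inside the range of the other rows.

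The ratio of miR-191 to miR-425 within a library was 1.17 in replicate 1 (95% limits of 1.13 and 1.20) and 1.71 in replicate 2 (1.66 and 1.77). miR-191 thus made up 53.8% of the counts of the locus in replicate 1 (53.1% to 54.6%) and 63.1% in the other library (62.3% to 63.9%). Replicate 2 was shifted toward miR-191, and the intervals did not overlap. On the log2 scale the mean ratio was 0.50 ± 0.39 (SD, n = 2), and it changed by 0.55 (counting SE 0.033), or 1.47 times. The sum of both was closer between the libraries than either alone, at 3913 CPM in replicate 1 and 4037 CPM in replicate 2 (3975 ± 88 CPM). The log2 ratio of this sum was 0.05, which follows from opposite changes of near-equal size and is not a separate result. The ratio of miR-378a to miR-425 was 2.92 (2.85 to 2.99) and 3.62 (3.51 to 3.73), and that of miR-378a to miR-191 was 2.50 (2.45 to 2.56) and 2.11 (2.06 to 2.17).

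To set this shift in context, all pairs of consecutive rows on one strand with starts within 1000 bases and means of 100 CPM or more were listed. There were 41 such pairs beside miR-191 and miR-425, made of 68 rows, some of which stand in more than 1 pair. The absolute difference between the log2 ratios of the partners ranged from 0.03 to 1.18 with a median of 0.26, and 12 pairs (29.3%) differed by more than the 0.55 of miR-191 and miR-425. In 13 of the 41 pairs (31.7%) the binomial test called both partners in opposite directions, as it did here. Mir20a and Mir92-1, Mir96 and Mir183, and Mir141 and Mir200c were such pairs with larger differences, of 0.66, 0.65 and 0.62. Reads that Mir92-1 may share with Mir92-2 were not examined, so the ratio of Mir92-1 is uncertain. Under limits chosen after the data were seen, the share of pairs called in opposite directions was lower. It was 23.1% (3 of 13) at 1000 CPM or more and 20.3% (12 of 59) at 10 CPM or more. With starts within 10000 bases it was 27.1% (19 of 70). In levels the partners stood closer than most: the mean of miR-191 was 1.41 times that of miR-425, and only 5 of the 41 pairs had a smaller ratio of levels, against a median of 3.62. An alternative added once the values were known left out pairs in which a hairpin shares a stretch of 20 bases with another. Of the 29 other pairs that stayed, 8 differed by more than miR-191 and miR-425, and 1 had a smaller ratio of levels. In 3 of the 29 a row had no hairpin entry, so a shared stretch could not be looked for.

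**Figure D5:**
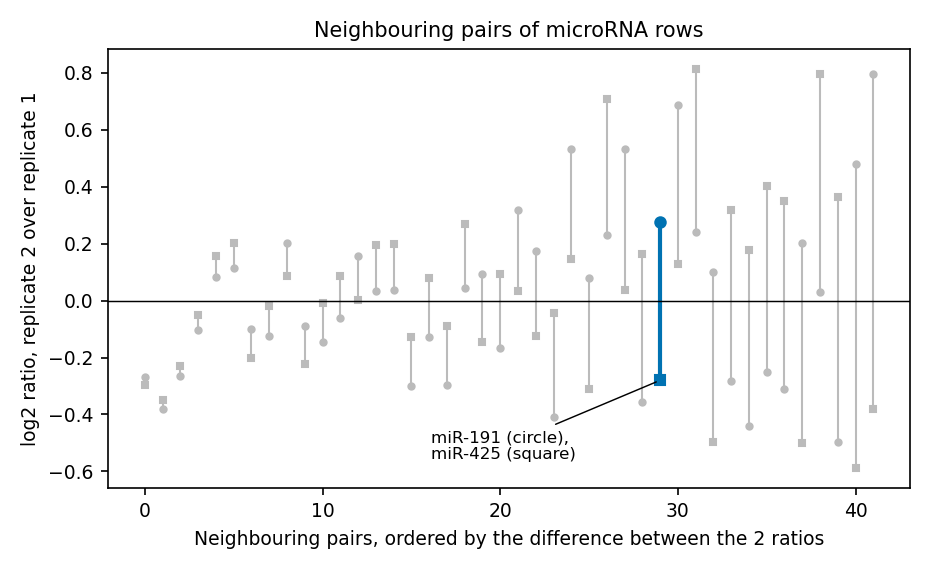
Log2 ratio of replicate 2 over replicate 1 for both partners of each neighbouring pair (circle, the row with the lower start; square, the next row), ordered by the difference between them. The pair miR-191 and miR-425 is in blue at 0.28 and -0.28, and 12 pairs to its right differ by more.

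Other microRNAs used as references were compared with miR-191. Of 17 listed genes, 16 had a row and 14 were detected. Their median level was 598 CPM (range 4.01 to 23448), and 5 of them lay above miR-191. The highest were Mir26b at 23448 ± 1113 CPM, Mir30e at 20958 ± 3411, Mir93 at 16019 ± 2327 and Mir23a at 13747 ± 3537. The binomial test called 13 of the 16, 5 as higher in replicate 2 and 8 as higher in replicate 1, against 42.0% of all rows tested, whose median level was 66.5 CPM. The median log2 ratio of the list was -0.28, beside -0.01 over all rows tested. Its median absolute log2 ratio was 0.38, beside 0.30 over all rows tested. The absolute ratios of miR-191 and miR-425 (both 0.28) lay below both medians, which take in rows with few counts. They lay above the median of 0.18 over the 191 rows at 100 CPM or more. Mir423, at 7125 CPM in replicate 1 and 7359 in replicate 2, had a log2 ratio of 0.05. Several of these genes, among them the copies of Mir16, Mir26a, Mir103 and Mirlet7a, have near-identical copies elsewhere and are uncertain.

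The other listed microRNAs linked to metabolism had lower mean levels than miR-378a. Of 17 listed genes, 16 had a row, 11 were detected, and none exceeded miR-378a in the mean by reads that could be assigned. The copies of Mir103 and of Mir365 are near-identical, so their levels, and with them the median of the list, are lower limits. Mir143, which is linked to fat cell differentiation, came next at 5260 ± 26 CPM, lower than miR-378a in both libraries but within its SD in the mean. Mir27b followed at 2916 ± 206 CPM, Mir107, hosted by a pantothenate kinase gene, at 1568 ± 123 and the endocrine microRNA Mir375 at 1511 ± 143 CPM. The list's median was 79.7 CPM. Of the 13 members tested, 5 were called, 2 as higher in replicate 2 and 3 in replicate 1, a share near the 42.0% of all rows tested. Their median log2 ratio was -0.02, beside -0.01 over all rows tested.

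Muscle microRNAs were also set beside miR-378a. Of 10 listed genes, 9 had a row and 4 were detected, and Mir206 alone exceeded 100 CPM. It stood at 2196 CPM in replicate 1 and 2498 CPM in replicate 2, below miR-378a in both. Mir208b at 45.3 ± 1.6 CPM, Mir133b at 45.1 ± 2.5 and Mir499 at 25.2 ± 6.9 followed. Both Mir133a genes had 0 counts in both libraries, but they are near-identical copies whose common reads could not be assigned. Of the 7 tested, 3 were called, again near the 42.0% over all rows. Mir206 was higher in replicate 2, and Mir499 and Mir1a-1 (11 and 0 counts) were higher in replicate 1. Reads that Mir1a-1 may share with Mir1a-2, which had no row, were not examined, so the level and call of Mir1a-1 are uncertain. The list's median log2 ratio was -0.07, beside -0.01 over all rows tested. What part muscle cells had in the reads of miR-378a was not tested.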

How the data were processed

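Small RNA of 2 pools of limbs was sequenced. The authors deposited raw counts per microRNA gene, made on mm10 with GENCODE M4 per the file headers of the README deposited with each library; aligner, counting program and trimming were not given in the sources used here. The 3 count columns are both strands, own strand and opposite strand, read from their values: the first equalled the sum of the others in all 1973 rows. The 4 rows that name no gene (57.5% of reads in replicate 1, 63.0% in replicate 2, with opposite-strand reads counted as outside genes) stayed out of totals.

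CPM used the own-strand total of all gene rows, also for members counted on the opposite strand. Names and positions came from GENCODE M21, on the same assembly (1894 rows matched). The exact binomial test (SciPy 1.17.1) covered rows whose counts summed to at least 10, with Benjamini-Hochberg adjustment at 0.05. It was tried on simulated data with counting error alone, which cannot show how it behaves where libraries differ by more than that. edgeR 4.0.16 gave TMM scaling and the negative binomial test. No fit with residual degrees of freedom exists for 1 library against 1.

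The members and lists were chosen with earlier results of these data known. Named were the members, the genes named Mir378, microRNA genes within 10 kb or with a shared seed, the 3 rows nearest in level, and at most 4 examples per list, the highest. Mir423, Mir1a-1, Mir133a and the pairs named as examples were chosen after their values were seen, as was the rule of 100 CPM and 1000 bases for pairs. Alternatives were other totals, both strands, other scaling, an added count of 1, no filter, and each replicate alone.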

Additional observations from a re-analysis of the deposited data

How the results depend on the processing

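Over all reads in the table, levels were 2118 CPM for miR-378a, 919 for miR-191 and 659 for miR-425, and over totals without the 10 highest genes they were 10432, 4550 and 3227. With both-strand totals miR-378a stood at 5198 CPM, outside its SD. Their order was the same under each of these totals, as the counts do not change, and in each library alone: 5273 to 5389, 2106 to 2548 and 1489 to 1807 CPM. Counting both strands changed no level. In single libraries the log2 ratio of miR-191 to miR-425 ranged from 0.22 to 0.78 and that of miR-378a to miR-425 from 1.55 to 1.86.

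The binomial test called 184 rows, 189 with TMM scaling, 175 without the filter, and the negative binomial test 0. miR-191 and miR-425 kept their opposite directions under every scaling tried. The median log2 ratio of the rows at 100 CPM or more was 0.01 with TMM scaling and -0.03 without the 10 highest genes. Shifts of that size could not reverse ratios of 0.28 and -0.28. Both microRNAs lost their calls in the negative binomial test. That test takes its dispersion from the difference between the same 2 libraries, so a lost call does not decide whether a row differs. The ratio of miR-378a was 0.01 without the 10 highest genes. Other neighbouring pairs that differed by more than miR-191 and miR-425 made up 15.4% to 27.6% under limits chosen after the data were seen. The lowest share was that of pairs at 1000 CPM or more, a limit that both miR-191 and miR-425 pass. The arms were not separated, and 2 libraries bound the precision of every SD.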
